A study of Mus musculus with 6 samples.

Results

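ATAC-seq marks open chromatin by inserting sequencing adapters into accessible DNA, and a peak is a stretch where inserted fragments pile up above the surrounding background. The regions described here were called in exactly 1 of 6 libraries of mouse skeletal stem and progenitor cells (SSPCs). Peaks of the 6 lists were joined into regions wherever they overlapped by at least 1 bp, which gave 63840 regions, and a region was kept when only 1 list held a peak in it. This selected 14693 regions, 23% of all regions, and each of them consisted of a single peak. The other regions were called in 2 libraries (7676), 3 (6045), 4 (5684), 5 (7339) or all 6 (22403). The members were chosen by the presence and absence of calls, so their number, width, peak values, rank and distance to shared regions are given as descriptions without a test. Features that the calls did not use (position relative to start sites, base composition, repeats and motifs) were tested over libraries.

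The study compared SSPCs of young and middle-aged C57BL/6 mice, with 3 libraries per age, to ask how accessibility changes with age. Marrow of tibiae and femora was plated, no treatment was given, and cells were used at passage one. The labels name the ages only as young and middle-aged. They give at least 3 mice for the assays but no animal for a library, so p-values measure the spread between these libraries. In such a bulk culture, a weak peak from few cells and a weak peak from less open chromatin in every cell cannot be told apart.

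The labelled cell type was checked on peaks within 1000 bp of start sites of its markers. Of 10 SSPC genes, Kitl, Ebf3 and Foxc1 had one in all 6 libraries, and Lepr, Nes and Vcam1 had none in any. The number per library was 7, 5 and 3 in the young libraries 1 to 3 and 5, 6 and 7 in the middle-aged libraries 1 to 3. Of 16 hematopoietic genes, 8 had one in all 6 libraries, among them Ptprc, Spi1, Itgam and Adgre1, while Cd3e, Gata1, Elane and Mpo were among those with none. Per library 8, 11 and 9 hematopoietic genes had one in the young libraries 1 to 3 and 10, 10 and 9 in the middle-aged libraries 1 to 3. A start site peak in a region called by at least 2 libraries was found for 70% of the SSPC and 68.75% of the hematopoietic genes. Of all protein-coding genes 58.7% had one. The other lists ranged widely, with 80% of adipogenic, 78.1% of Notch pathway and 66.7% of osteogenic genes. It was 50% of endothelial, 30% of neuronal and 0% of hepatocyte genes. The SSPC and hematopoietic lists thus lay near the share of all genes and well above the neuronal and hepatocyte lists. The part of hematopoietic cells in the single-library regions was not tested.

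Many regions with strong and constant accessibility are promoters, which are rich in GC and lie at the start sites of broadly used genes. Weaker and more variable sites are mostly enhancers and insulators away from start sites. Enhancers of mesenchymal cells often carry sites of AP-1 (Fos and Jun dimers), TEAD and RUNX factors, and RBPJ is the DNA-binding partner of Notch signaling. CTCF binds a long motif at insulators and at the anchors of chromatin loops. A peak caller reports a site only where the pileup passes a limit, so a site near that limit may be listed in one library and missing in the next.

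The strongest single-library region of each library is shown first by its sequence, since these are the members of highest rank within their lists. Each line gives 200 bp around the summit on the plus strand of GRCm38 (mm10). Capitals mark matches to AP-1 (TGANTCA) or the other motifs searched, namely TEAD (GGAATGT), RUNX (TGTGGTT), RBPJ (GTGGGAA), CTCF and EBF, on either strand.
Young 1, intron of Gclc, chr9:77756219-77756418: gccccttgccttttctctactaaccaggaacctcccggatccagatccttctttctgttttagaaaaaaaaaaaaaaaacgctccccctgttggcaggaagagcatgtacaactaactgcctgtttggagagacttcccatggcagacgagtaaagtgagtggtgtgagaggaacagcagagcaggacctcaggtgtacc
Young 2, exon of Bhlhe41, chr6:145860464-145860663: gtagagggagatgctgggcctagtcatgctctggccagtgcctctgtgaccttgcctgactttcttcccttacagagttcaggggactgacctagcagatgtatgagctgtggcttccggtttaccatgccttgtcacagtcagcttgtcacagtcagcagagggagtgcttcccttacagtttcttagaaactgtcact
Young 3, start site window of Rtn4, chr11:29694172-29694371: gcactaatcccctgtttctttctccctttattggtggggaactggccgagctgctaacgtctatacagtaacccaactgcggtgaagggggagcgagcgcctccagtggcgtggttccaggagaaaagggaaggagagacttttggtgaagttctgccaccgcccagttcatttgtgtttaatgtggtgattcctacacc
Middle-aged 1, intron of Topbp1, chr9:103347177-103347376: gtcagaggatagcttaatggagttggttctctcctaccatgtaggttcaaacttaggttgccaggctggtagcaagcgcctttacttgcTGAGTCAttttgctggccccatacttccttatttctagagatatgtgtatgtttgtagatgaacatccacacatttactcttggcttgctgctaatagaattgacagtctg
Middle-aged 2, start site window of Ccl27a, chr4:41774080-41774279: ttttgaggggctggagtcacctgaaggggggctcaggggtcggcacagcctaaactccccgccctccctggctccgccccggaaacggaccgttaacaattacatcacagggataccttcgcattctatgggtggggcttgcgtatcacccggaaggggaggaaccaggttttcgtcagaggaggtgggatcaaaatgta
Middle-aged 3, intergenic, nearest gene Ap1s3, chr1:79577473-79577672: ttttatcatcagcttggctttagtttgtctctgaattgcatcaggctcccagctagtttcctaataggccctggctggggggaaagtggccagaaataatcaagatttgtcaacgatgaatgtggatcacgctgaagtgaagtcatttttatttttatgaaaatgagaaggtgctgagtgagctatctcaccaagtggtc
Of these 6 windows, the one in Topbp1 held a motif match, an AP-1 site, and the other 5 held none of the 6 motifs.

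Another 3 windows are shown because the CTCF consensus became more frequent among the stronger members. They were chosen after their values were seen.
Young 1, intron of Morc1, chr16:48570436-48570635: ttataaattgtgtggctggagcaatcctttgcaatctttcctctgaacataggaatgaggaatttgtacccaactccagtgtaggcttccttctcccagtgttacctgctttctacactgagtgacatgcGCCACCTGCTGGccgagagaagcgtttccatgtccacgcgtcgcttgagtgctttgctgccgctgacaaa
Middle-aged 3, intergenic upstream of Ppara, chr15:85716127-85716326: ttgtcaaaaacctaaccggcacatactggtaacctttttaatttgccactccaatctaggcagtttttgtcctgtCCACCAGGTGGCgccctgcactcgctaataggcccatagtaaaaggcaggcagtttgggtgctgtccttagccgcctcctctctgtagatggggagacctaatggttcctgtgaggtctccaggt
Middle-aged 1, intergenic upstream of Selenop, chr15:3202366-3202565: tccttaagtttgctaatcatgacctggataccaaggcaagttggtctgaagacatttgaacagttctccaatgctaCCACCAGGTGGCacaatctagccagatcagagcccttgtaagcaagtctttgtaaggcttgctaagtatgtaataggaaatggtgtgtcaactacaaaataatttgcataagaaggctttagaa
In each of the 3 windows the capitals are 1 match to the CTCF consensus.

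Single-library regions were unevenly spread over the libraries. Young 1 had 928, young 2 had 2523 and young 3 had 297. Middle-aged 1 had 3370, middle-aged 2 had 3480 and middle-aged 3 had 4095. Every middle-aged library thus had more than every young one, and 10945 of the 14693 members (74.5%) came from middle-aged libraries. The mean was 1249 ± 1147 (SD, n = 3) per young and 3648 ± 391 (SD, n = 3) per middle-aged library, a ratio of 2.92. The SD among young libraries was nearly as large as their mean. As a share of its own list, a library's members made up 2.58%, 5.74% and 1.08% in the young libraries 1 to 3, and 7.27%, 7.44% and 8.47% in the middle-aged libraries 1 to 3.

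The order of the libraries by single-library regions was the order of their list lengths. The lists held 35953, 43941 and 27628 peaks in the young libraries 1 to 3, and 46364, 46745 and 48344 in the middle-aged libraries 1 to 3. When each list was reduced to its 27628 best peaks by −log10 q, the ratio turned to 0.819. Young 1, 2 and 3 then had 1207, 1112 and 1886 single-library regions, and middle-aged 1, 2 and 3 had 1124, 1133 and 1187. Young 3, the library with the fewest before, then had the most. Without young 2 the ratio was 5.80. The excess in middle-aged libraries therefore held for the lists as deposited and not for lists of equal length. In that setting the list of young 3, the shortest, stayed whole with its weakest peaks. The ratio was 3.47 after thinning to the lowest background and 2.85 with a −log10 q of at least 5. It was 2.96 with peaks within 200 bp linked and 2.25 with a reciprocal overlap of 50%.

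**Figure D1:**
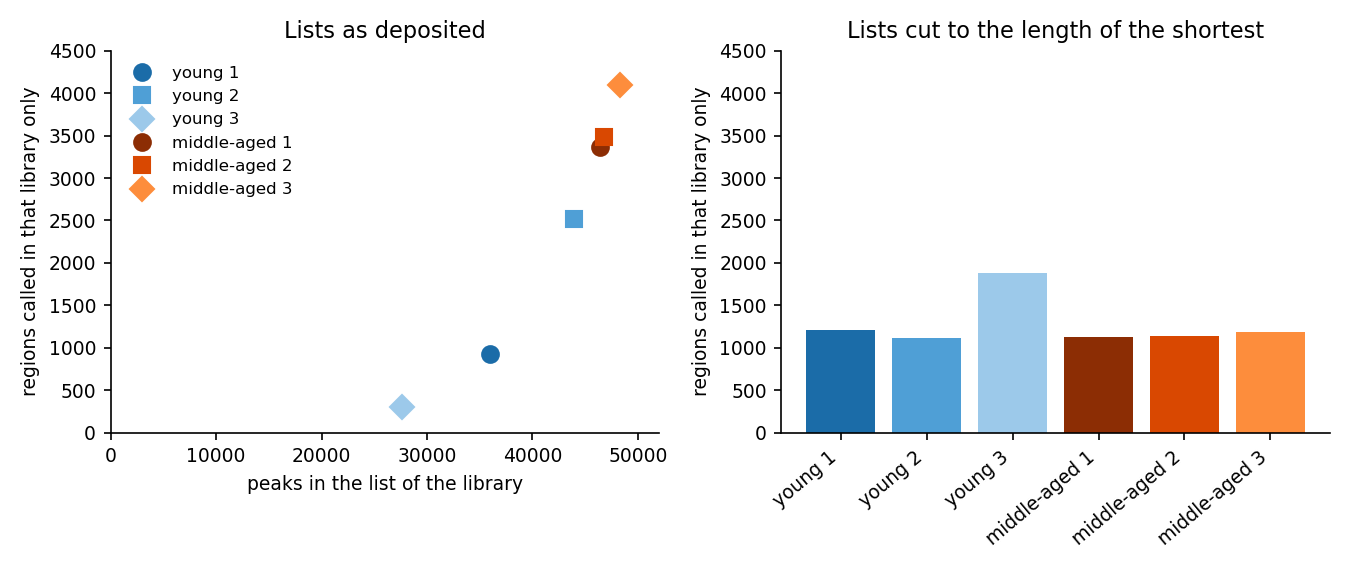
Left, regions called in 1 library only (vertical axis, number) against the number of peaks in that library's list (horizontal axis), 1 point per library. Right, bars give the same number after every list was reduced to its 27628 best peaks. On the left the points rise from 297 (young 3) to 4095 (middle-aged 3) with list length, and on the right young 3 stands highest at 1886 while the other 5 lie between 1112 and 1207.

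Single-library regions were narrow and low. Their median width was 209, 213 and 201 bp in the young libraries 1 to 3 and 215, 217 and 219 bp in the middle-aged libraries 1 to 3, against 336 to 435 bp for peaks of the same libraries in regions called by all 6. Between 27.6% (middle-aged 3) and 48.5% (young 3) were exactly 200 bp wide, the smallest width in the lists, compared with 6.20% to 8.78% of all peaks in a list. The widest member measured 574 bp.

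The median fold enrichment, the pileup at the summit over the local background with 1 added to each, was 3.79, 4.18 and 4.60 in the young libraries 1 to 3. In the middle-aged libraries 1 to 3 it was 4.24, 4.41 and 4.22. Peaks of regions called in all 6 libraries had medians between 6.96 and 8.87. The medians of single-library regions thus lay below those of constant regions in every library, and the highest of them belonged to young 3, the library with the lowest background.

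The median −log10 p at the summit was 7.39, 7.62 and 7.64 in the young libraries 1 to 3 and 7.07, 7.38 and 8.04 in the middle-aged libraries 1 to 3. The median −log10 q, the p-value after the caller's correction, ran from 4.65 (middle-aged 1) to 5.62 (middle-aged 3). In the constant regions it ran from 12.8 to 28.3. A −log10 q of at least 5 was reached by 7454 members (50.7%). The median over all peaks of a list ran from 10.9 (young 3) to 12.3 (young 1), so this limit lay low in the lists.

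Solved from fold enrichment and p, the summit pileup of the median member was 18, 16 and 13 fragments in the young libraries 1 to 3 and 15, 15 and 17 in the middle-aged libraries 1 to 3. Pileups are given here as fragments, although the unit that the caller counted is not given. The genome-wide background of the lists was 3.75, 2.83 and 1.65 in the young libraries 1 to 3. In the middle-aged libraries 1 to 3 it was 2.54, 2.40 and 2.79. It stands for relative depth only if the caller's settings, which are not given, were the same for all lists. Young 1 had the highest background and 928 single-library regions, and young 3 had the lowest background and the fewest of them, 297. The part of depth in these numbers was not tested. The median summit stood 4.80 to 7.89 times above the background, against 10.9 to 17.5 times for regions called in all 6 libraries.

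Peaks were also ranked within their own list by −log10 q, where 100 is the strongest. By construction 50% of all peaks lie above a rank of 50. The median rank of single-library regions was 9.15, 12.1 and 10.6 in the young libraries 1 to 3 and 10.9, 11.8 and 13.5 in the middle-aged libraries 1 to 3. By rank, 6278 members (42.7%) lay at 10 or below, 5265 (35.8%) between 10 and 25, and 3023 (20.6%) between 25 and 50. In the lowest 5 percent of a list, members made up 6.53% of the peaks of young 3 and 37.7% of those of middle-aged 3.

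**Figure D2:**
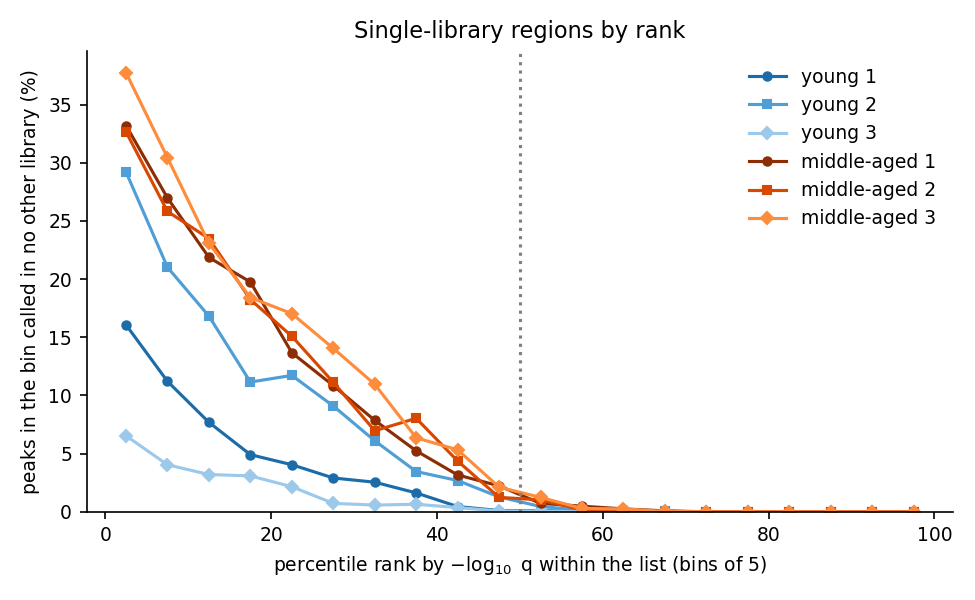
Share of peaks called in no other library (vertical axis, percent) by percentile rank within the list (horizontal axis, bins of 5), 1 line per library. The dotted line marks a rank of 50. The share falls in every library from between 6.53% and 37.7% in the lowest bin to at most 1.24% in the bin just above 50, and no member ranked above 75.

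Strong single-library regions existed but were rare. A rank above 50 was reached by 127 members (0.864%), of which 19 came from young and 108 from middle-aged libraries. By library they numbered 3, 15 and 1 in the young libraries 1 to 3 and 35, 29 and 44 in the middle-aged libraries 1 to 3. Middle-aged libraries also held 74.5% of all members, and their lists were longer than the young ones. With equally long lists 30 strong members remained, and the split by age was not tested. None of the 127 had a rank above 75, and the highest was 66.7. The summit pileup of the 127 ran from 22 to 71 fragments with a median of 26, and their fold enrichment from 3.36 to 8.24. The members nearest the limit were a middle-aged 3 region upstream of Ptpn3 with a rank of 50.2 on the inside and a young 2 region in an intron of Igfbpl1 with a rank of 49.95 on the outside.

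The strongest member of all lay in an exon of Bhlhe41 outside its coding sequence, in young 2. Bhlhe41 encodes a transcriptional repressor of the circadian clock. The region had a pileup of 43 fragments over a local background of 6.02, a fold enrichment of 6.27 and a rank of 66.7, and the nearest peak of any other library was 4316 bp away. Middle-aged 1 held the next, in an intron of Topbp1, a scaffold protein of the DNA damage checkpoint. It had 30 fragments over 2.76, the highest fold enrichment among the strong members (8.24) and a rank of 66.0, and contained the AP-1 site shown above. The 2 regions reached nearly the same rank, one on a raised and one on a low background.

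The other leading members were mixed in position. In middle-aged 1 they lay in an intron of Tex14 (rank 65.5), a gene of germ cell bridges, and 77605 bp downstream of the start of Vegfa (62.5), the vascular growth factor. In middle-aged 2 the first lay 11 bp upstream of a start site of the chemokine gene Ccl27a (61.3), and the next were intergenic near Gm29776 (59.1) and Dgkh (56.7), a diacylglycerol kinase. In middle-aged 3 they lay near Ap1s3 (65.8), which encodes a clathrin adaptor subunit, 19337 bp upstream of the nuclear receptor gene Ppara (64.02), and in an intron of Aak1 (62.7), a kinase of clathrin adaptors. The Ccl27a region lay 201 bp from a shared region, whereas the Aak1 region was 72214 bp from one.

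In young 1 the leading members lay in introns of Gclc (57.1), which encodes the catalytic subunit of the enzyme that starts glutathione synthesis, Morc1 (53.0) and Zcchc2 (50.4). In young 2 the next lay near Sec22b (63.6), a vesicle fusion protein, and in an intron of Ripk2 (59.3), a kinase downstream of NOD receptors. In young 3 they lay at Rtn4 (50.6), which encodes a protein of the endoplasmic reticulum, in an intron of Rel (45.6), an NF-kB subunit, and 16503 bp upstream of the acetyltransferase gene Ep300 (43.9). Only the first of young 3 passed the limit of 50.

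Some strong members stood on a high local background. The Ripk2 region had 69 fragments over a background of 19.3 and a fold enrichment of 3.45. A region 31 bp upstream of a start site of Dnpep, an aminopeptidase gene, in middle-aged 3 had 71 fragments over 20.4 and lay 129 bp from a shared region. Of the 127 strong members, 21 had a fold enrichment under 5, and 11 of these 21 lay within 1000 bp of a shared region. At the other end, 51 of the 127 stood on the genome-wide background of their list.

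The median single-library region lay 9021 bp from the nearest region called in 2 or more libraries. By library the median was 6907, 9196 and 5352 bp in the young libraries 1 to 3, and 9813, 9983 and 8144 bp in the middle-aged libraries 1 to 3. Within 1000 bp of a shared region lay 2395 members (16.3%), and 6937 (47.2%) lay more than 10000 bp from one. Only 1166 members (7.94%) had a peak of another library within 200 bp. Most members were therefore separate places in the genome and not the flank of a shared peak. Among the strong members the median distance was 6366 bp, with 26 within 1000 bp and 48 beyond 10000 bp.

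**Figure D3:**
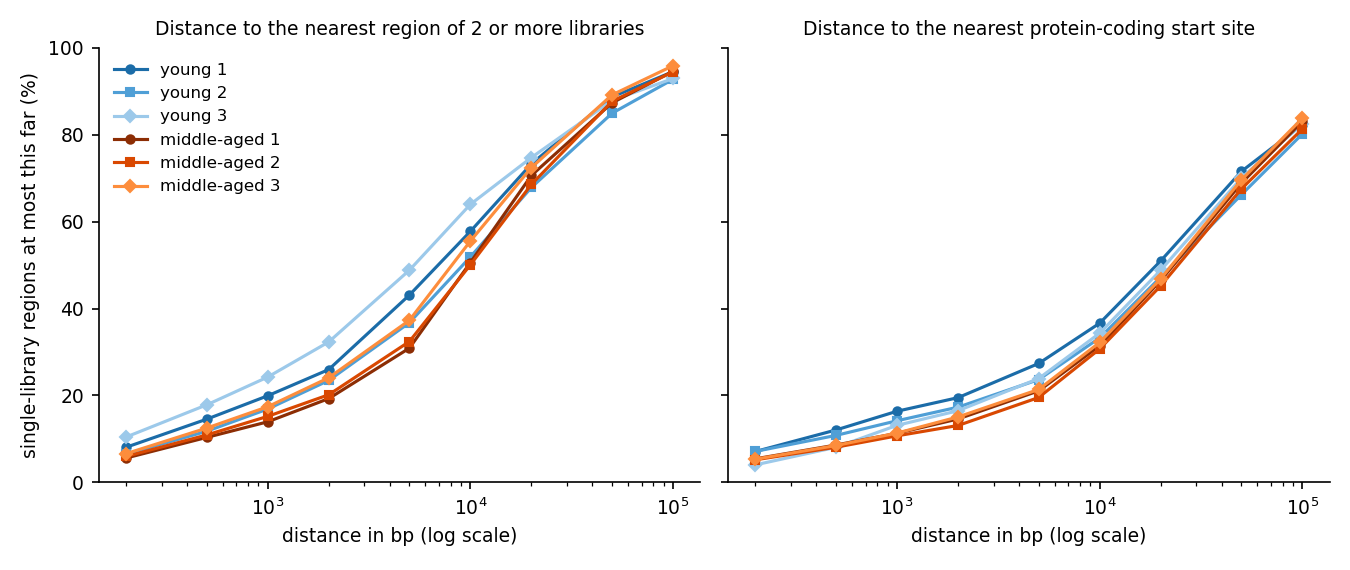
Cumulative share of single-library regions (vertical axis, percent) by distance in bp on a log axis, to the nearest region called in 2 or more libraries (left) and to the nearest protein-coding start site (right), 1 line per library. On the left young 3 lies closest, with 24.2% of its members within 1000 bp, and middle-aged 1 has 13.9%. On the right the lines stay close together, with 10.7% to 16.4% within 1000 bp.

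Single-library regions were mostly away from start sites. Of the 14693 members, 1768 (12.03%) came within 1000 bp of a protein-coding start site, against 25.3% of all regions, and 548 overlapped a start site. Introns of protein-coding genes held 5994 members (40.8%) and intergenic DNA 5381 (36.6%). Noncoding genes held 923, coding exons 230 and other exons 397. The median distance to a start site was 22941 bp, and 2601 members (17.7%) lay more than 100000 bp from one. The makeup was close to that of peaks in regions called by 2 to 5 libraries (15.8% at start sites, 39.0% in introns) and far from that of peaks in regions called by all 6, of which 47.4% lay at start sites.

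Within each library, members were at start sites less often than peaks in regions called by at least 2 libraries. The share was 16.4%, 14.2% and 13.1% in the young libraries 1 to 3 and 11.3%, 10.7% and 11.4% in the middle-aged libraries 1 to 3. The shared peaks of the same libraries reached 37.6%, 33.6%, 43.3%, 32.7%, 32.7% and 32.3%. The mean difference was −22.5 ± 3.84 percentage points (SD, n = 6), lower in 6 of 6 libraries (exact sign permutation test, two-sided p = 0.031, the smallest that 6 libraries allow, adjusted over 4 features 0.031). The 6 differences are not fully independent, since the shared regions recur among the libraries. Members are weak peaks, and with both sets limited to ranks of at most 25 the difference was −6.18 points (exact sign permutation test, adjusted p = 0.0417), a comparison added after seeing the data. Where overlap had to be reciprocal and at least 50%, the difference was −8.94 points (exact sign permutation test, adjusted p = 0.167), and those in GC (−2.24), repeats (1.76) and AP-1 (−0.469) did not pass the threshold either.

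GC content was likewise lower in members than in shared peaks. Around the summit it averaged 51.8%, 50.9% and 48.6% for the members of the young libraries 1 to 3 and 49.8%, 49.6% and 50.1% for those of the middle-aged libraries 1 to 3. In shared peaks it averaged 55.4% ± 0.727 (SD, n = 6), and in all 200-bp windows of the genome 41.7%. The mean difference from shared peaks was −5.23 ± 1.38 points (SD, n = 6), lower in 6 of 6 libraries (exact sign permutation test, two-sided p = 0.031, adjusted 0.031). At ranks of at most 25 it was −1.80 points. Members thus lay between the genome and the shared peaks in GC, nearer to the shared peaks.

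Repeats masked in the reference covered 11.6%, 10.7% and 13.1% of the windows of the young libraries 1 to 3, and 10.5%, 10.97% and 10.5% of those of the middle-aged libraries 1 to 3. Shared peaks had 8.28% ± 0.155 (SD, n = 6), and the genome 36.4%. Members exceeded shared peaks by 2.94 ± 1.06 points (SD, n = 6) in 6 of 6 libraries (exact sign permutation test, two-sided p = 0.031, adjusted 0.031). At ranks of at most 25 the excess was 1.501 points. Single-library regions were therefore slightly richer in repeats than shared peaks and much poorer in them than the genome.

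**Figure D4:**
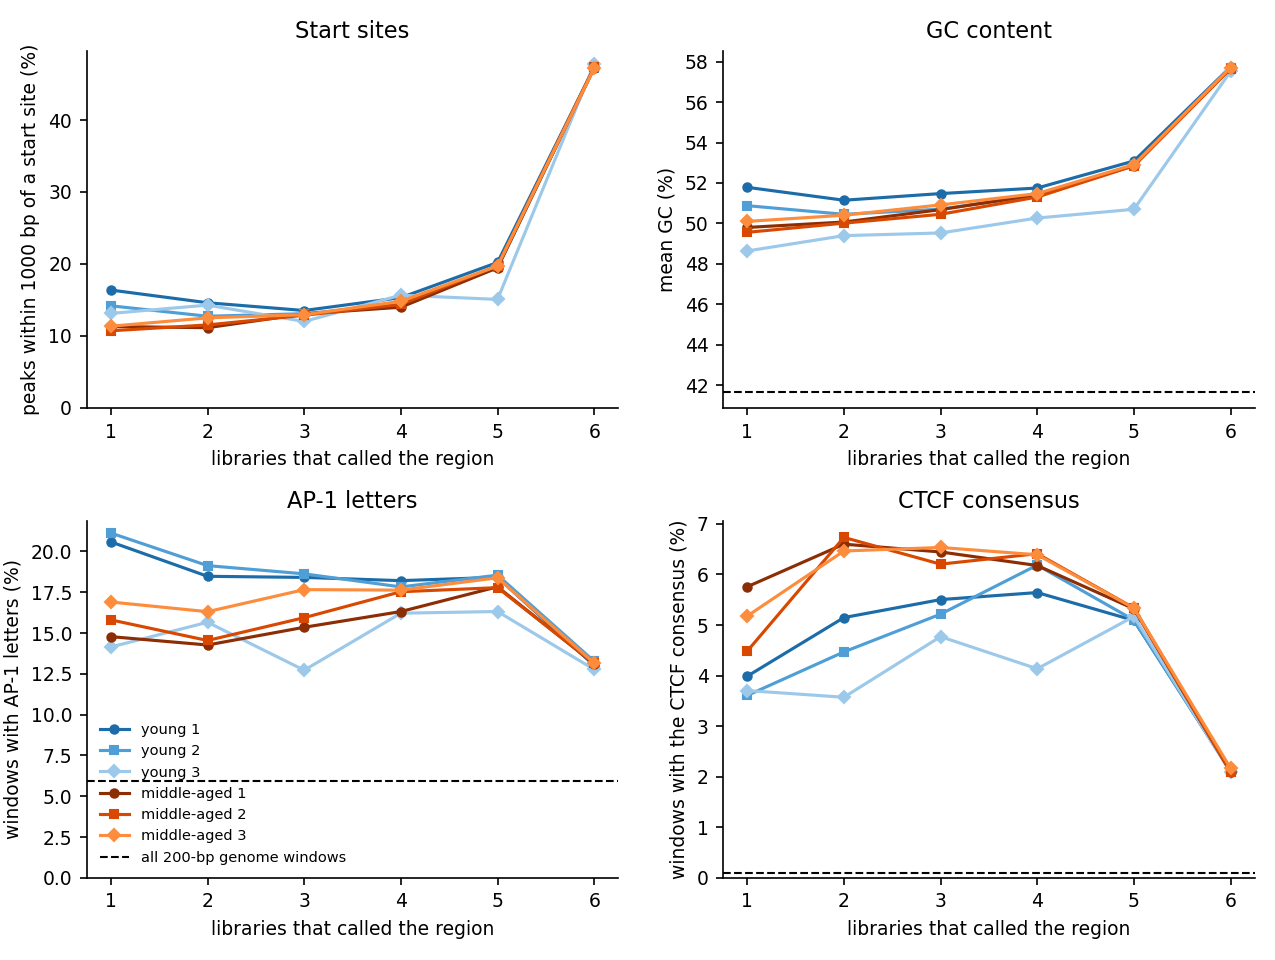
Each panel plots a feature of peaks (vertical axis, percent) against the number of libraries that called the region (horizontal axis, 1 to 6), 1 line per library. The dashed line is the value of all 200-bp windows of the genome, not drawn for start sites. Peaks called in 1 library lie near those called in 2 to 4 in all panels. At 6 libraries start site share and GC rise, to 47.4% and 57.7%, and AP-1 and CTCF fall.

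AP-1 letters occurred in 17.1% of the member windows, against 15.9% over all regions, taking each region's best-ranked peak, and 5.94% of genome windows. The share was 20.6%, 21.1% and 14.1% in the young libraries 1 to 3 and 14.8%, 15.8% and 16.9% in the middle-aged libraries 1 to 3. Shared peaks of the same libraries had 14.8%, 15.5%, 13.2%, 14.6%, 14.8% and 15.3%. The mean difference was 2.54 ± 2.49 points (SD, n = 6), higher in 6 of 6 libraries, by 0.206 to 5.80 points (exact sign permutation test, two-sided p = 0.031, adjusted 0.031). It was 0.0560 points at ranks of at most 25 (exact sign permutation test, adjusted p = 0.906), and over whole peaks, which are wider when shared, it turned to −0.412. An excess over shared peaks was thus not detected among peaks of low rank, whereas each library's members held AP-1 letters more often than genome windows did.

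The CTCF consensus occurred in 4.77% of member windows and 0.0932% of genome windows. By library the share was 3.99%, 3.61% and 3.704% in the young libraries 1 to 3 and 5.76%, 4.48% and 5.18% in the middle-aged libraries 1 to 3. Shared peaks of the same libraries were likewise apart by age. They had 3.16%, 3.50% and 2.44% in the young and 3.87%, 3.91% and 4.01% in the middle-aged libraries 1 to 3. The difference by age in CTCF was not tested. Regions called in 2 to 5 libraries had 5.24% to 6.14% and those called in all 6 had 2.11%. The members therefore resembled other variable regions more than constant ones in this motif. Among the members it rose with rank, from 2.45% at ranks up to 10 to 5.43%, 8.24% and, in the 127 strong members, 9.45% (12 regions, 95% exact binomial interval 4.98% to 15.9%, which covers counting error only). Regions of 2 to 5 libraries rose alike over the same ranks, from 2.65% to 4.93%, 6.72% and 7.82%. Of the 12 regions 11 came from middle-aged libraries, as did 108 of all 127 strong members.

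The other motifs stood less far above the genome. TEAD letters were in 4.98% of member windows (genome 2.74%), RUNX letters in 9.73% (4.67%), RBPJ letters in 5.06% (3.49%) and the EBF consensus in 0.715% (0.304%). Regions called in all 6 libraries had 2.16%, 6.60%, 4.13% and 0.386%. The TEAD share was 4.20%, 4.36% and 1.68% in the young libraries 1 to 3 and 5.01%, 5.78% and 5.05% in the middle-aged libraries 1 to 3, without overlap of the ages. Shared peaks were likewise apart in TEAD, with 2.35% to 3.23% in young and 3.50% to 3.57% in middle-aged libraries. These shares were not tested, and a match of letters is not evidence that the factor binds.

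**Figure D5:**
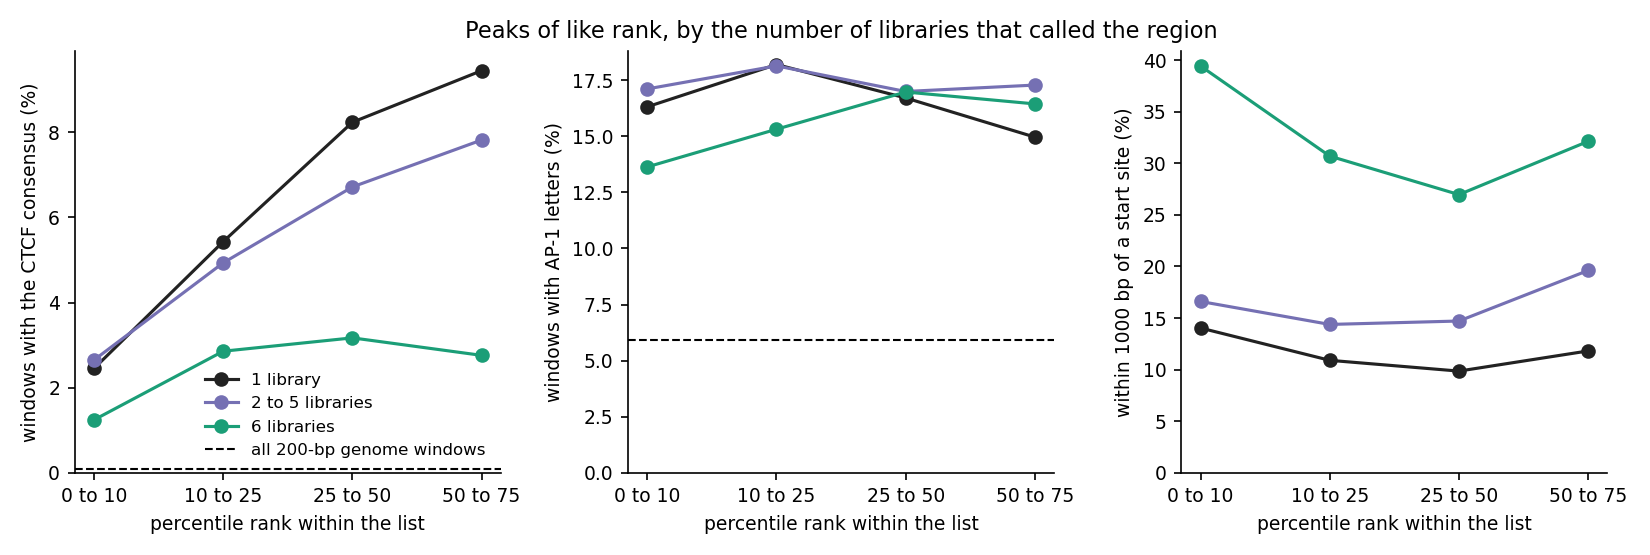
Share of windows or peaks with a feature (vertical axes, percent) by percentile rank within the list (horizontal axes), for peaks in regions called in 1, 2 to 5 or 6 libraries, all libraries pooled. The dashed line is the share of all 200-bp genome windows. At like rank, single-library regions lie close to regions of 2 to 5 libraries for CTCF and AP-1, and below both other sets at start sites (9.86% to 14.0%).

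With 3 libraries per age the exact permutation test used here could not go below p = 0.1. Members lay at start sites in 14.6% ± 1.66 (SD, n = 3) of young and 11.1% ± 0.354 (SD, n = 3) of middle-aged cases, every young library being higher. Shared peaks ran the same way, with 33.6% to 43.3% at start sites in young and 32.3% to 32.7% in middle-aged libraries. The difference of −3.44 points had the smallest p that 3 against 3 libraries allow (exact permutation test, two-sided p = 0.1, adjusted over 4 features 0.4). It was −1.74 without young 1, −1.64 with equally long lists and −18.4 with the reciprocal overlap. With a window of 500 bp it was −1.92 (exact permutation test, two-sided p = 0.4, adjusted 0.533), and the ages overlapped. Young 3 then had 8.08%, below the middle-aged libraries at 8.10% to 8.61%, while young 1 had 12.1% and young 2 had 10.8%. The middle-aged minus young difference was −0.614 points in GC, −2.79 in AP-1 and −1.14 in repeats (exact permutation tests, two-sided p = 0.6, 0.4 and 0.2, adjusted 0.6, 0.533 and 0.4). The GC difference changed sign under several alternatives. In AP-1, young 1 and young 2 stood above the middle-aged libraries and young 3 below them.

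At gene level, 1692 of 21853 protein-coding genes (7.74%) had a single-library region within 1000 bp of a start site, and for 617 (2.82%) it was their only peak there. Among the SSPC genes 2 of 10 had one, Ebf3 and Pdgfra. Ebf3, a transcription factor of marrow stromal cells, had a young 2 region (chr7:137313965-137314174, rank 7.997) just 9 bp from a shared region. Pdgfra, a growth factor receptor of mesenchymal cells, had a middle-aged 1 region 645 bp upstream of a start site (chr5:75154253-75154465, rank 8.12). Both genes had shared peaks at a start site as well.

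The adipogenic list had 3 of 15 genes with a member. Pparg, the main regulator of fat cell formation, had a middle-aged 3 region with 14 fragments 37 bp upstream of a start site (chr6:115362086-115362379, rank 3.10). Zfp467, a zinc finger factor that favours adipogenesis, also had one in middle-aged 3 (chr6:48445371-48445641, rank 23.4), and Klf15, a transcription factor of fat cells, had one in middle-aged 1 (chr6:90466128-90466331, rank 24.0). All 3 genes had shared peaks too. Of the 15 osteogenic and 16 hematopoietic genes, 0 had a member.

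In the Notch pathway 3 of 32 genes had one, all in middle-aged libraries. The ligand gene Dll1 had a middle-aged 1 region (chr17:15376370-15376616, rank 26.4) and the coactivator gene Maml1 a middle-aged 2 region (chr11:50291624-50291823, rank 4.15), each beside a shared region, 237 and 155 bp away. Hes5, a target gene of Notch, had its only start site peak in middle-aged 3 (chr4:154961383-154961590), with 21 fragments, a fold enrichment of 3.20 and a rank of 5.57. The list's count of 9.38% stood near the 7.74% of all genes, and 74.5% of all members came from middle-aged libraries. Of the endothelial list 2 of 10 genes had a member, Esam in young 2 and Tek in middle-aged 1, where it was the only peak. The neuronal list had 1 of 10, Neurod2 in young 2, and the hepatocyte list 0 of 10.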

How the data were processed

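ATAC-seq peak lists of 3 young and 3 middle-aged libraries were used. Before deposit the authors used bcl2fastq for base calls, Bowtie2 for alignment to mm10, Sambamba for duplicates and MACS for peaks, library by library. A shift of reads for the transposase is not given in the sources used here. Each list as deposited by the authors holds a whole-number score, a linear fold enrichment (ratio), a −log10 p and a −log10 q at the summit. These values belong to 1 list and were compared by rank. Read depth is unknown.

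Overlapping peaks (1 bp) were merged with numpy 2.4.6 and pandas 2.3.3 in Python 3.11.15. Fold enrichment was taken as (pileup + 1)/(background + 1) and −log10 p as a Poisson tail. A whole pileup solved both for 100% of peaks in each list (tolerance 0.001 in −log10 p). The minimum background over the peaks of a library was used as its genome-wide level. Start sites came from GENCODE M21 (protein-coding transcripts, 54327 positions), sequence and repeats from GRCm38.p6, for 200 bp around each summit. Classes and start site windows were assigned in the order start site window, coding exon, other exon, intron, noncoding gene, intergenic.

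Within libraries, members were compared with peaks in regions of 2 or more libraries by an exact sign permutation test, and ages by an exact permutation test over 20 assignments, each adjusted over 4 features by Benjamini-Hochberg. The labels do not say whether libraries with equal replicate numbers belong together. Their deviations in rank correlated at 0.00276, −0.00309 and −0.0414 over 22403 regions, which cannot show how the libraries were prepared. The test carried no block, and a replicate block was run as an alternative. Scripts were tested on simulated data. Members, gene lists and tests were chosen with earlier results of these data known. Named were the 3 best-ranked members of each library, those nearest a rank of 50 and list genes with a member at a start site. The alternatives are in the closing section.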

Additional observations from a re-analysis of the deposited data

How the results depend on the processing

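The share of regions called in 1 library kept within 1.5 times of its value under every alternative run and was 23.2% to 24.8% when 1 library was left out. The ratio of middle-aged to young turned to 0.819 with equally long lists and ran from 2.10 to 5.80 without 1 library. It was 3.47 after thinning to the lowest background and 2.85 with a −log10 q of at least 5. With peaks within 200 bp linked it was 2.96, and with the reciprocal overlap 2.25. The 127 strong members became 690 with a reciprocal overlap of 50%, 52 with a −log10 q of at least 5, 30 with equally long lists, 263 when ranked by fold enrichment and 0 at a rank above 75. Without 1 library they numbered 134 to 196 (196 without young 2, 193 without middle-aged 2), since regions of 2 libraries then joined them. With the reciprocal overlap the difference of members from shared peaks became −8.94 points at start sites, −2.24 in GC and 1.76 in repeats, past no threshold, and −0.469 in AP-1. The AP-1 difference was also past no threshold with a −log10 q of at least 5 (3.43), equally long lists (3.53) and ranks of at most 25 (0.0560), and turned to −0.412 over whole peaks. Leaving out 1 library, where the smallest exact p is 0.0625, gave −23.2 to −21.0 at start sites, −5.44 to −4.74 in GC, 2.14 to 2.82 in AP-1 and 2.61 to 3.14 in repeats.

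Between the ages, the GC difference turned to 0.328 with a −log10 q of at least 5, 0.152 with equally long lists, 0.127 after thinning to the lowest background and 0.238 without young 1. It was −1.45 without young 3 and −4.00 with the reciprocal overlap. The start site difference kept its direction, at −18.4 with the reciprocal overlap, −1.95 with peaks within 200 bp linked, −2.06 with a −log10 q of at least 5, −1.64 with equally long lists, −1.77 after thinning, −1.92 with a window of 500 bp and −4.54 to −1.74 without 1 library. The AP-1 difference turned to 0.761 and that in repeats to 0.283 with the reciprocal overlap. With the replicate block, 6.27 was the mean of the ratios of 3 pairs, whereas the main value of 2.92 was a ratio of group means. These are different measures and cannot be compared directly. The block left the feature differences at −3.44, −0.614, −2.79 and −1.14 (exact sign permutation over 3 pairs, adjusted p of 0.667 to 0.75, where the smallest unadjusted p is 0.25). The labels give no shared origin for equal numbers, and deviations in rank did not correlate over 0.1 for any pair. The causes of these changes were not tested. A region not called is not a region without signal, and the reads that would show it were not used here.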

Other observations

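Chromosome 1 held 9.48% of the single-library regions of young 1 (88), 8.85% of those of middle-aged 2 (308) and 7.99% of those of middle-aged 3 (327). It held 6.26%, 5.39% and 6.62% of those of young 2, young 3 and middle-aged 1. Of the shared peaks 6.89% to 6.96% lay there in each of the 6 libraries. Chromosome X held 0.862%, 0.991% and 1.68% of the members of young 1, 2 and 3 and 1.99%, 1.78% and 1.37% of those of middle-aged 1, 2 and 3, against 1.801% to 1.99% of shared peaks. These shares were looked at after the data were seen and were not tested.

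Members had 3.89 CpG dinucleotides per 200-bp window, against 1.64 in the genome, 3.95 in regions of 2 libraries and 10.3 in regions of all 6. The distance to the nearest region called in all 6 libraries was also close between members and regions of 2 libraries, with medians of 24269 and 21652 bp.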
